A study of Mus musculus with 21 samples.

Results

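The genes described here are the cytochromes P450 of the mouse outside the Cyp2c and Cyp3a subfamilies. They are all rows whose symbol begins with Cyp and a digit, without Cyp2c and Cyp3a genes and without Cyp24a1, Cyp27a1, Cyp27b1, Cyp2r1, Cyp51 and Cyp26b1. This rule, which uses names only, gave 70 of the 21441 genes in the tables. By role they are 3 genes of family 1, 33 of family 2, 20 of family 4, 6 of steroid hormone synthesis, 5 of bile acid and oxysterol metabolism, 2 of retinoic acid breakdown and the orphan Cyp20a1.

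Cytochromes P450 are heme enzymes that insert oxygen into lipids, hormones, drugs and plant compounds, and most sit in the endoplasmic reticulum, where Por hands them electrons. Families 1 and 2 are best known for handling foreign compounds in the liver and in the gut wall, the first barrier to what is eaten. Family 4 enzymes act mostly on fatty acids and eicosanoids, while others make steroid hormones or bile acids or break down retinoic acid. Several nuclear receptors set the levels of P450 genes, among them Nr1i2 (PXR) and Nr1i3 (CAR), as does the aryl hydrocarbon receptor Ahr.

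RNA was sequenced from colon and ileum of C57BL6J mice, labelled as intestinal epithelium. KO mice (4 colon and 4 ileum libraries) carried Villin-CreERT2 and floxed VDR alleles, an inducible deletion in epithelial cells, and were untreated males of 9 or 11 weeks. CDX2-VDR transgenic mice had no VDR of their own but human VDR in the distal intestine, driven by the CDX2 promoter, so that no group with unaltered VDR is among those compared. Uninjected transgenic mice gave 4 colon libraries (3 female, 1 male) and 3 ileum libraries (2 female, 1 male) at 9 or 10 weeks; treated transgenic mice were males of 9 weeks (3 colon and 3 ileum libraries) that received 1,25D3, the active form of vitamin D, at 1 ng per g of body weight 48, 24 and 6 h before the end. The sex of most uninjected samples, the promoter that drives the change in VDR and the injections therefore coincide with the groups and cannot be told apart from them. Age differs as well: KO samples 2, 3 and 4 of each tissue were 11 weeks old, and no transgenic sample was above 10. Libraries are named by tissue, group and the number in their column.

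Values are FPKM, which scale reads by gene length and library size, so that levels of different genes can be set side by side. Each table holds 2 groups of 1 tissue and was scaled on its own; the same library differed between tables by a factor of 0.933 to 1.01 in the colon and 0.915 to 0.980 in the ileum. Groups were therefore tested only within a table, and colon and ileum levels stand side by side with no test. Estimated depth was 13.1 to 49.5 M reads per colon library and 18.0 to 55.3 M per ileum library. The whole-gene Vdr row, at 20.6 to 23.5 FPKM in Colon KO and 12.7 to 34.0 in Colon uninjected, cannot show whether the floxed part was lost or whether reads came from the transgene, and so does not check the genotype labels. Cyp24a1, the 1,25D3-degrading enzyme left out of the set, was listed at 0 in the 4 Colon KO libraries and stood at 8.84 to 30.4 FPKM in the 3 Colon treated libraries. Epithelial markers were present in every library (7 of 7, summed 5780 to 20840 FPKM). Colon KO 2, Colon uninjected 3 and Colon treated 4 stood apart by pancreatic acinar transcripts, with sums of 38040, 123500 and 22320 FPKM over 11 of 12 markers, against 20.6 to 1031 in the other libraries.

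The Cyp2d genes took the largest share of this P450 RNA in the colon, so their promoters are shown first. In all, 8 of them lie in 1 cluster at chr15:82200958-82624675 (mm9), 6 of the 8 on the minus strand. Of 9 Cyp2d members, 5 had an entry in the RefSeq promoter table (GRCm38.p6), which covered 44 of the 70 P450 genes. The 100 bases before the annotated start are given for 2 genes that were abundant in the colon (Cyp2d9 and Cyp2d10), 1 close copy that was not (Cyp2d11), and 1 gene abundant in both tissues (Cyp2d26). Capitals mark CAAAGNNCA, a pattern like the sites bound by the liver and gut factor HNF4, which was chosen after these sequences were seen. The windows run 5′ to 3′ on the strand of each gene: chr15:82452277-82452376 on the plus strand for Cyp2d9, and chr15:82407195-82407294, chr15:82394023-82394122 and chr15:82794246-82794345 on the minus strand for Cyp2d10, Cyp2d11 and Cyp2d26.
Cyp2d9: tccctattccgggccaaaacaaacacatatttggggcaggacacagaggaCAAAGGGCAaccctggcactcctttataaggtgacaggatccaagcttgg
Cyp2d10: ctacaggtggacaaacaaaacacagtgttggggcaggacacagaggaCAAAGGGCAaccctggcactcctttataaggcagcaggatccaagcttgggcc
Cyp2d11: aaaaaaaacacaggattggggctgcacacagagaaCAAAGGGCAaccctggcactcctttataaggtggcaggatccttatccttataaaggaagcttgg
Cyp2d26: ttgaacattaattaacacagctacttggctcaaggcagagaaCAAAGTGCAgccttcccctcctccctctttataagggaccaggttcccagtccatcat

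The pattern was read on both strands of the 250 bases before each start. It was present in all 5 Cyp2d promoters of the table (the fifth is Cyp2d40) and in 10 of the 44 P450 genes with an entry. Counted by promoter, it was in 10 of the 52 of P450 genes and in 5.49% of the 32851 of all genes. Because the pattern was chosen after the printed sequences were seen, its presence in those 4 was fixed in advance. These shares are therefore no test of enrichment. The 100 bases of Cyp2d11 matched those of Cyp2d9 and of Cyp2d10 at 90.6% of aligned positions, and those of Cyp2d26 matched Cyp2d9 at 67.8%. In the colon these 4 genes had very different levels: the KO means were 24.6 FPKM for Cyp2d10, 21.4 for Cyp2d26, 14.6 for Cyp2d9 and 0.724 for Cyp2d11. A match says nothing of whether a factor was bound. Coding sequences of the copies are also close, 94.7% identical between Cyp2d10 and Cyp2d11, 92.5% between Cyp2d9 and Cyp2d10, 92.1% between Cyp2d9 and Cyp2d12 and 91.6% between Cyp2d11 and Cyp2d34, so that reads may have been split between them and the single values are uncertain. Cyp2d26 and Cyp2d22 are farther from their nearest copy, Cyp2d40, at 84.2% and 83.5%. Cyp2b10 is 88.6% identical to Cyp2b13, Cyp2j6 83.0% to Cyp2j9 and Cyp4f16 84.3% to Cyp4f17. For these genes, as for Cyp2d26 and Cyp2d22, reads may still have been split, so that their values are uncertain between copies too.

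In the colon, 29 of the 70 P450 genes reached a mean of 1 FPKM in at least 1 group, and in the ileum 23; 19 did so in both tissues and 37 in neither. A mean of 10 FPKM was reached by 14 genes in the colon and 10 in the ileum, and all 10 of the ileum were among the 14. Cyp19a1 (aromatase), Cyp2b13 and the pseudogene Cyp2j12-ps were listed at 0 in all 21 libraries. The heatmap of the 33 genes that reached this mean in either tissue shows family 2 and family 4 genes present in all libraries beside genes of the colon. Of the 10 genes that reached it in the colon alone, Cyp1a2, Cyp2a12, Cyp2a5 and Cyp2j5 did so through Colon uninjected 3.

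**Figure D1:**
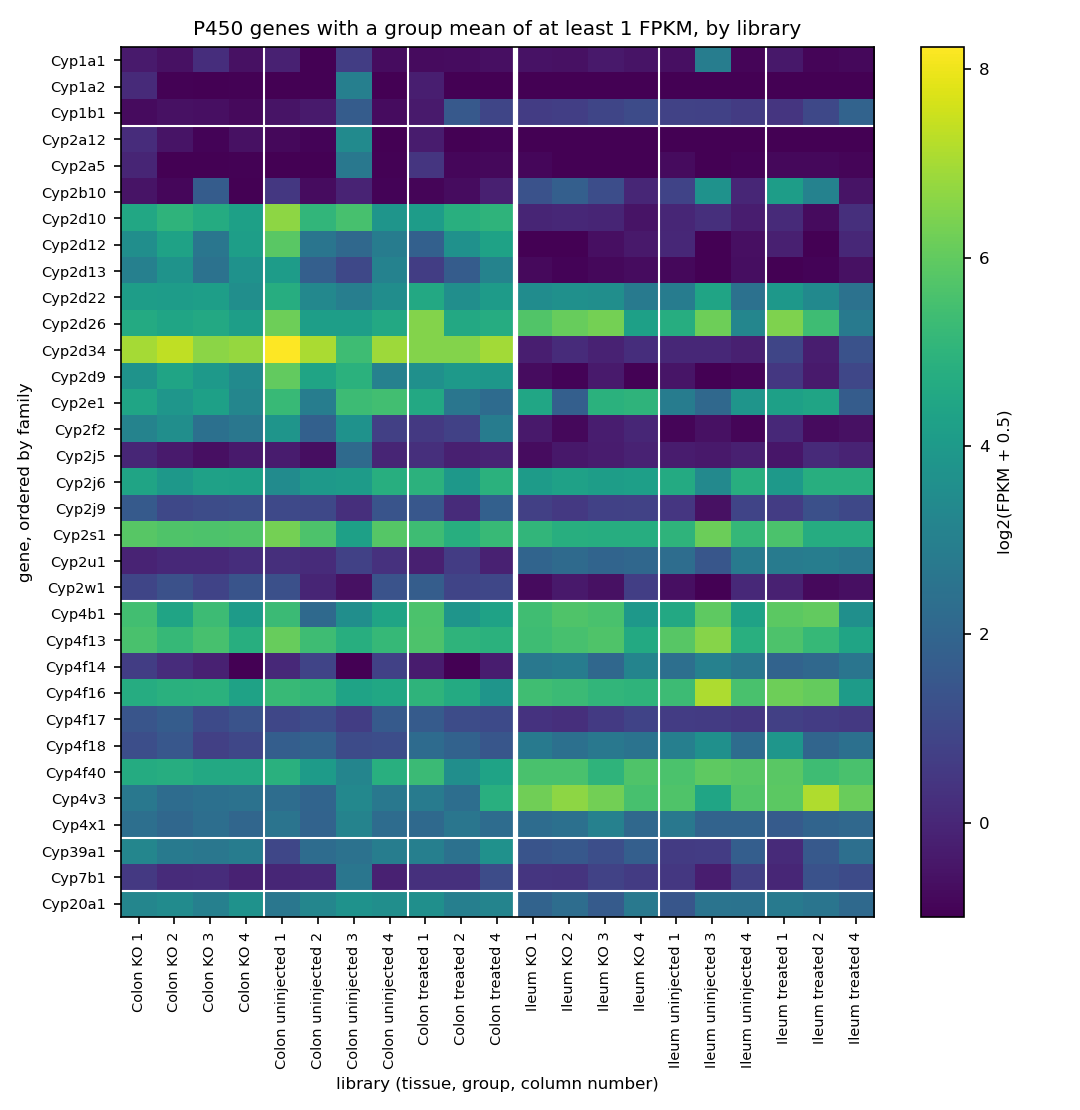
Levels of the 33 P450 genes whose mean reached 1 FPKM in some group (rows, by family) in the 21 libraries (columns), as log2(FPKM + 0.5). Cyp2d34 is bright across the colon columns and dark in the ileum, Cyp4v3 is brighter in the ileum than in most colon columns, and Cyp1a2, Cyp2a12 and Cyp2a5 light up in Colon uninjected 3.

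The sum over all 70 genes was 354 to 986 FPKM in the colon (median 463) and 276 to 612 in the ileum (median 429). In the colon, Cyp2d genes made up 38.2% to 65.0% of that sum (median 48.3%), and Cyp2d34 was the highest gene in 9 of 11 libraries. In the ileum, Cyp2d genes made up 4.5% to 20.8% and Cyp4f genes 29.1% to 51.6%, against 14.2% to 23.3% for Cyp4f in the colon. No single gene led the ileum: Cyp4v3 was highest in 4 of 10 libraries, and Cyp2d26, Cyp4f40, Cyp4f13 or Cyp4f16 in the others.

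Cyp2d34 stood at 126, 162, 97.5 and 108 FPKM in Colon KO, at 301, 132, 40.9 and 117 in Colon uninjected and at 90.6, 91.8 and 124 in Colon treated. In the 10 ileum libraries it ran from 0.342 to 2.02 FPKM. Cyp2d10, Cyp2d9, Cyp2d12 and Cyp2d13 had the same split. Their colon ranges were 13.7 to 99.9, 7.89 to 64.4, 3.02 to 58.7 and 1.09 to 16.6 FPKM, while none exceeded 1.47 FPKM in any ileum library. Cyp2f2, which oxidizes inhaled and dietary aromatics in the lung, ran from 0.939 to 13.7 FPKM in the colon and from 0.0440 to 0.546 in the ileum. For each of these 6 genes the highest ileum library lay below the lowest colon library.

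Cyp2d26 and Cyp2d22, of the same cluster, did not share that split. Cyp2d26 ran from 17.4 to 91.7 FPKM in the colon and from 6.26 to 87.3 in the ileum, and Cyp2d22 from 7.31 to 26.3 and from 4.91 to 20.6. Both tissues also had Cyp2s1 (18.7 to 79.5 FPKM in the colon, 25.8 to 71.0 in the ileum), a P450 of epithelia that can act on retinoids and eicosanoids. Cyp2j6, of a subfamily that epoxidizes arachidonic acid, ran from 10.4 to 30.5 and from 9.77 to 27.5 FPKM.

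**Figure D2:**
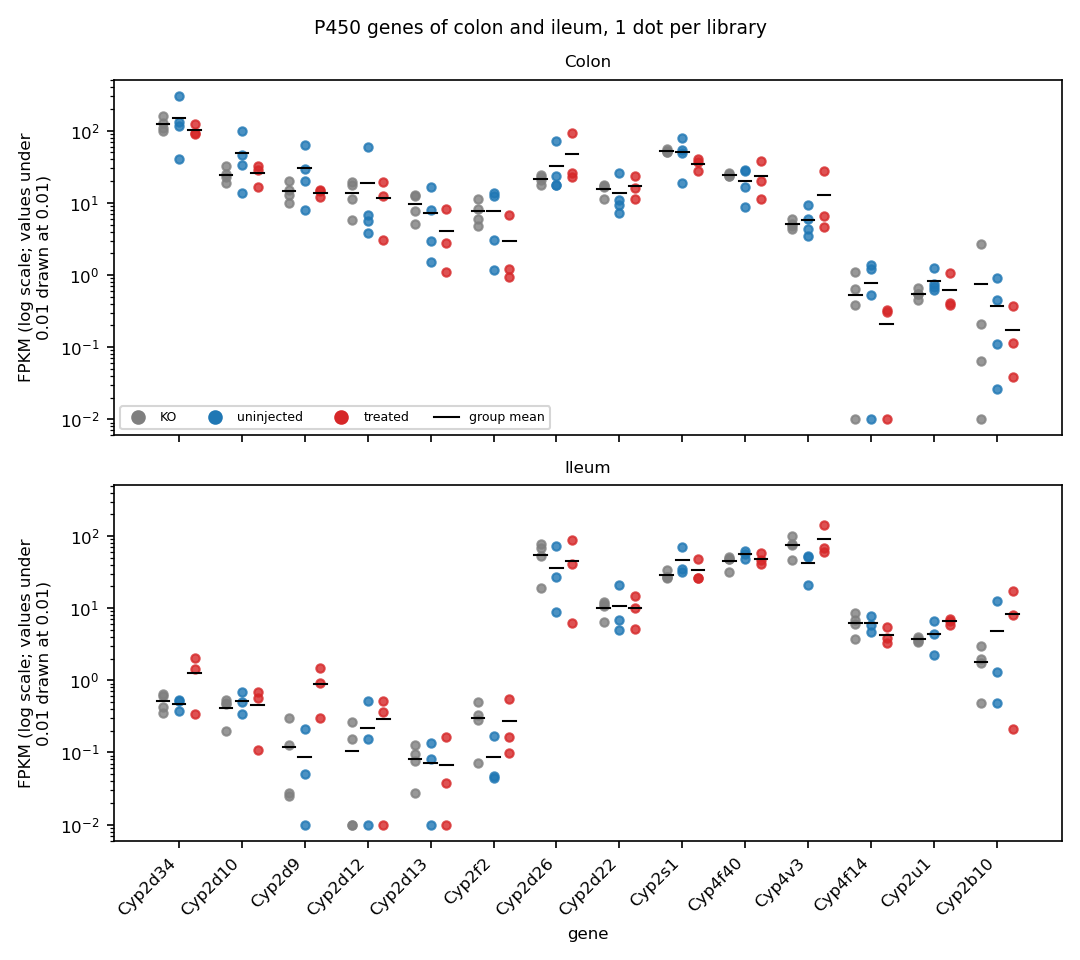
FPKM (log axis) of 14 P450 genes in colon (top) and ileum (bottom), 1 dot per library in grey (KO), blue (uninjected) or red (treated), with a bar at the group mean. Cyp2d34, Cyp2d10, Cyp2d9, Cyp2d12, Cyp2d13 and Cyp2f2 are high only in the colon panel, and Cyp4v3, Cyp4f14 and Cyp2u1 sit higher in the ileum panel, as do most dots of Cyp2b10.

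Among family 4 genes, Cyp4v3, a fatty acid omega-hydroxylase, had a higher level in most ileum than in most colon libraries. It ran from 3.45 to 9.43 FPKM in 10 of 11 colon libraries, reached 27.8 in Colon treated 4, and ran from 21.1 to 140 in the ileum. Cyp4f13, Cyp4f16 and Cyp4f40 had 26.9 to 67.8, 13.5 to 36.6 and 8.75 to 38.3 FPKM in the colon and 20.7 to 93.5, 16.2 to 138 and 31.7 to 61.5 in the ileum. Cyp4f14, an enzyme that inactivates leukotriene B4, stayed at or below 1.38 FPKM in the colon and ran from 3.34 to 8.53 in the ileum, with no overlap between the tissues. Cyp4b1 ran from 4.01 to 49.1 FPKM in the colon and from 11.7 to 63.7 in the ileum. The Cyp4a genes, PPARA targets of the liver and kidney, stayed under 1 FPKM in every library except Cyp4a12a at 2.42 in Colon uninjected 3.

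The biosynthetic genes were scarce. None of the 6 genes of steroid hormone synthesis exceeded 0.466 FPKM in any library; that highest value was Cyp17a1, the 17-hydroxylase, in the ileum. Cyp26a1 and Cyp26c1, which clear retinoic acid, did not exceed 0.162 FPKM. Among bile acid genes, Cyp7a1, the rate-limiting enzyme of bile acid synthesis, stayed at or below 0.193 FPKM, whereas Cyp39a1, an oxysterol 7-hydroxylase, ran from 1.46 to 12.3 FPKM in the colon and from 0.563 to 4.65 in the ileum.

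No P450 gene of the set passed the threshold of an adjusted p of 0.05 in any of the 6 comparisons between groups (limma, Benjamini-Hochberg over all genes tested). Of all genes tested, the share called was 0.0804% in colon uninjected minus KO, 0.296% in colon treated minus KO, 0% in colon treated minus uninjected, 0.00846% in ileum uninjected minus KO, 0.0835% in ileum treated minus KO and 0% in ileum treated minus uninjected. The P450 genes tested, those whose values averaged 1 FPKM or more in the libraries compared, numbered 25, 23, 27, 19, 21 and 21 in that order. At an unadjusted p under 0.05 there were 0, 4, 0, 0, 1 and 0 of them, against 4.6%, 7.31%, 1.14%, 5.42%, 3.65% and 0.821% of all genes tested. The voom method, run on reads recovered from the FPKM steps, also called 0 in each comparison, with 0, 4, 0, 1, 1 and 0 at an unadjusted p under 0.05. With 3 or 4 libraries a group the intervals in the plot of log2 differences are wide, and a gene that was not called may still differ. The labels do not say which libraries come from the same animal, so the p-values measure the spread between these libraries only.

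**Figure D3:**
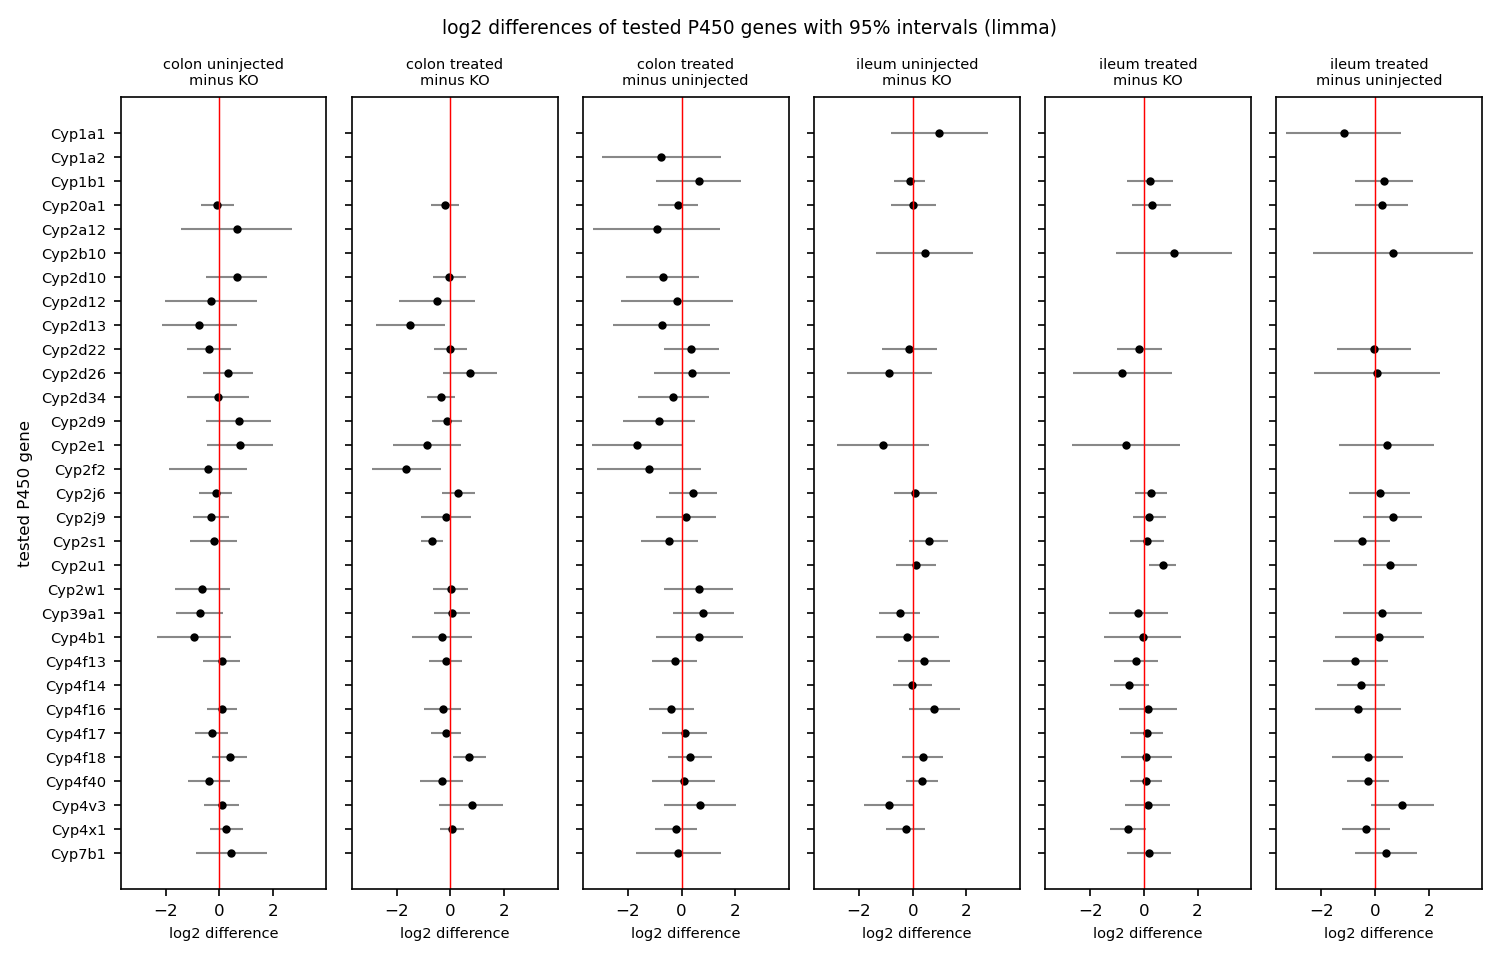
log2 differences (dots) with 95% intervals (lines) from limma for each tested P450 gene in the 6 comparisons, on the log2(FPKM + 0.5) scale; the red line is no difference. The intervals of Cyp2s1, Cyp2f2, Cyp2d13 and Cyp4f18 in colon treated minus KO, and of Cyp2u1 in ileum treated minus KO, leave out 0, but none of these passed the adjusted threshold.

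Colon treated minus KO held the largest differences relative to their spread. Cyp2s1 stood at 59.4, 54.6, 53.7 and 54.6 FPKM in Colon KO and at 40.6, 27.4 and 36.5 in Colon treated. All 3 treated libraries lay below all 4 KO libraries; 8.04% of all genes tested were without overlap in either direction. The log2 difference was -0.68 (95% interval -1.08 to -0.29, adjusted p = 0.296 by limma), and over 18 alternatives it ran from -0.80 to -0.52 with adjusted p of 0.188 to 0.817. In the uninjected colon Cyp2s1 was at 79.5, 49.4, 18.7 and 54.9 FPKM in the other table with KO, which was scaled separately. These values run from below the treated range to above the KO range.

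Cyp2f2 stood at 8.83, 12.1, 5.19 and 6.26 FPKM in Colon KO and at 0.939, 1.21 and 6.77 in Colon treated. Colon treated 1 and 2 were below every KO library, and Colon treated 4 was within their range. The log2 difference was -1.65 (95% interval -2.93 to -0.37, adjusted p = 0.521 by limma). Without Colon treated 4, a library high in acinar transcripts, it was -2.39 with a limma adjusted p of 0.0450, the single case in which a gene of the set was called; over all 18 alternatives the adjusted p ran from 0.0450 to 0.997. Without the 3 libraries high in acinar transcripts the limma adjusted p was 0.116.

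Cyp2d13 was at 8.04, 13.8, 5.47 and 13.3 FPKM in Colon KO and 1.09, 2.75 and 8.28 in Colon treated, a log2 difference of -1.49 (95% interval -2.78 to -0.20, adjusted p = 0.607 by limma) that was -0.91 without Colon treated 1 and -2.14 without Colon treated 4. Cyp4f18, a leukotriene B4 hydroxylase of leukocytes, was at 1.94, 2.46, 1.27 and 1.53 FPKM in KO and 4.22, 3.21 and 2.30 in treated, a log2 difference of 0.70 (95% interval 0.08 to 1.31, adjusted p = 0.614 by limma). Both sets of values overlapped by 1 treated library. Leukocyte markers differed between the same libraries, with sums of 120 to 172 FPKM in KO and 276 to 361 in treated over 8 of 9 markers; Lyz2 (97.9 to 132 against 149 to 202) was the largest part of these sums, and the defining leukocyte gene Ptprc overlapped (0.224 to 4.02 against 0 to 6.10). Goblet cell markers (3 of 3) summed to 8229 to 12000 FPKM in KO and 3806 to 5769 in treated, with no overlap for Clca3 and overlap for Muc2 and Tff3. Smooth muscle and stromal markers (9 of 9) summed to 1715 to 2409 and 1357 to 1441; the muscle genes Acta2, Tagln, Des and Myh11 did not overlap, while the fibroblast genes Col1a1, Col3a1, Dcn and Lum did. The part of these cell types in the differences of Cyp2s1, Cyp2f2, Cyp2d13 and Cyp4f18 was not tested. In bulk RNA, fewer cells of a type and less RNA per cell cannot be told apart.

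Among the P450 genes that were above 0 but averaged less than 1 FPKM, and so were not tested, 3 of 39 had no overlap in colon treated minus KO and 4 of 37 in ileum treated minus KO. Of all such genes 7.57% and 5.59% had none. The P450 count was close to that share in the colon and above it in the ileum, and each count rests on few genes. In the colon these were Cyp1b1, which metabolizes estrogens and polycyclic compounds, at 0.101 to 0.176 FPKM in KO and 0.293 to 2.495 in treated, Cyp1a1 at 0.179 to 0.711 and 0.108 to 0.145, and the pseudogene Cyp4f41-ps at 0.919 to 1.41 and 0.538 to 0.687. In the ileum they were Cyp4f41-ps again, at 0.926 to 1.19 FPKM in KO and 0.173 to 0.637 in treated, Cyp2d40 at 0.186 to 0.927 and 0.0418 to 0.175, Cyp4f39 at 0.0844 to 0.166 and 0.193 to 0.284, and the pseudogene Cyp2j11-ps, listed at 0 in KO and at 0.0221 to 0.0307 in treated. The Cyp2j11-ps values are close to 0 in both groups, so its lack of overlap carries little weight in the ileum count.

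In the ileum, Cyp2u1, a long-chain fatty acid hydroxylase, stood at 3.56, 4.20, 3.64 and 3.97 FPKM in KO and 6.69, 7.13 and 5.92 in treated. All treated libraries lay above all KO libraries, and 5% of all genes tested were likewise without overlap, in either direction. The log2 difference was 0.70 (95% interval 0.20 to 1.21, adjusted p = 0.939 by limma), and the alternatives gave 0.65 to 0.77. Ileum uninjected was at 4.43, 2.24 and 6.53 FPKM in the table with KO, which was scaled separately. These values run from below the KO range into the treated range. In the colon Cyp2u1 never exceeded 1.24 FPKM.

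Cyp4x1 was at 4.54, 4.97, 8.24 and 4.02 FPKM in Ileum KO and 2.68, 3.46 and 3.86 in Ileum treated, also without overlap, with a log2 difference of -0.60 (95% interval -1.27 to 0.07, adjusted p = 0.939 by limma), or -0.395 without Ileum KO 3. In ileum treated minus uninjected, where 2.7% of all genes tested did not overlap, Cyp4v3 was the 1 tested member without overlap. In that table it was at 49.9, 20.4 and 52.1 FPKM in uninjected and 54.1, 130 and 64.6 in treated, a log2 difference of 1.02 (95% interval -0.16 to 2.21, adjusted p = 1 by limma). It was 0.59 without Ileum uninjected 3 and 0.65 without Ileum treated 2. Against Ileum KO the uninjected group had a Cyp4v3 difference of -0.89 (95% interval -1.80 to 0.02) and the treated group one of 0.14 (-0.70 to 0.98). Markers of ileal enterocytes (3 of 3: Fabp6, Slc10a2 and Fgf15) summed to 3948 to 8243 FPKM in Ileum treated and 14630 to 37590 in Ileum KO. Nearly all of that sum was Fabp6, the ileal bile acid binding protein, while Slc10a2 (22.7 to 275 against 130 to 177 FPKM) and Fgf15 (1.14 to 29.1 against 6.53 to 29.3) overlapped. Absorptive enterocyte markers (6 of 6) also overlapped, at 8698 to 22000 FPKM in treated and 6735 to 22280 in KO. The part of these markers in the P450 values was not tested.

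**Figure D4:**
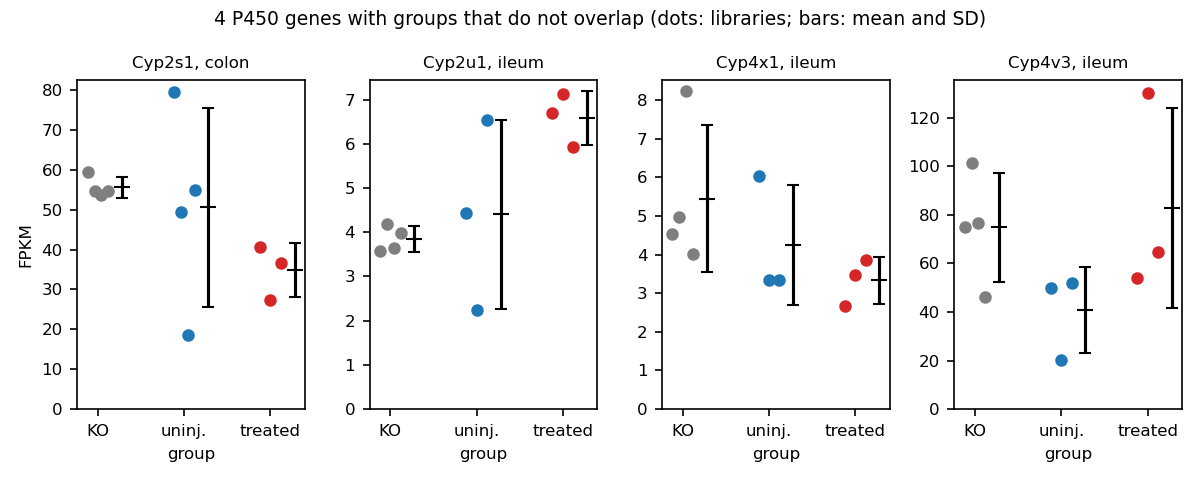
FPKM of Cyp2s1 in the colon and of Cyp2u1, Cyp4x1 and Cyp4v3 in the ileum, 1 dot per library, with the group mean and SD beside the dots; KO and treated come from the table that holds both and uninjected from the table with KO, except for Cyp4v3, where uninjected and treated come from the table that holds both. Cyp2s1 and Cyp4x1 are lower and Cyp2u1 is higher in the treated than in the KO libraries, and Cyp4v3 is higher in the treated than in the uninjected libraries.

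For colon uninjected minus KO no tested member lacked overlap, against 2.71% of all genes tested, and the smallest limma p was that of Cyp39a1 (log2 difference -0.73, 95% interval -1.60 to 0.14, adjusted p = 0.721), a difference of -0.34 without Colon uninjected 1. For colon treated minus uninjected it was Cyp2e1, at 36.8, 7.07, 39.4 and 43.2 FPKM in uninjected and 22.2, 5.42 and 3.96 in treated (log2 difference -1.65, 95% interval -3.33 to 0.02, adjusted p = 1.00, and -0.996 without the acinar-high libraries), and again no tested member lacked overlap, against 1.37%. Ileum uninjected minus KO had no tested member without overlap either, against 8.61% of all genes; its smallest p values were those of Cyp4v3, Cyp4f16 (log2 difference 0.81, 95% interval -0.13 to 1.75) and Cyp2s1 (0.59, -0.13 to 1.31). Without Ileum uninjected 3 these 3 differences were -0.46, 0.25 and 0.23.

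Median log2 differences of the tested members were -0.07, -0.17 and -0.12 in the 3 colon comparisons and 0.03, 0.10 and 0.16 in the 3 ileum comparisons, in the order above. Over all genes tested the same medians lay between -0.02 and 0.02. Family 2 had 10 of 13 tested genes lower in colon treated minus KO, with 3 at an unadjusted limma p under 0.05. Family 4 had 5 of 8 lower, with 1. Of all 12505 genes tested there, 6374 were lower, and 914 (7.31%) had such a p in either direction. In the other comparisons, in the order above, family 2 had 9 of 14, 9 of 14, 3 of 7, 3 of 8 and 2 of 8 lower. Several of its tested genes are Cyp2d copies between which reads may have been split. The difference between the ileum effect and the colon effect also passed the threshold for no gene of the set. The fit took colon and ileum libraries as independent, and the labels do not say whether they share animals. Tested were 26, 28 and 27 genes of the set, with 0.00809%, 0.00803% and 0% of all genes called (uninjected minus KO, treated minus KO and treated minus uninjected). At an unadjusted p under 0.05 there were 0, 6 and 1 of them, against 1.19%, 3.71% and 0.225% of all genes. The 6 genes of treated minus KO were Cyp2d9, Cyp2d13, Cyp2d34, Cyp2f2, Cyp2s1 and Cyp2u1. Apart from Cyp2s1 each of them was low in 1 tissue. For Cyp2d13, Cyp2f2 and Cyp2u1 the effect in that tissue was the smaller one. For Cyp2d9 (ileum 1.08, colon -0.12) and Cyp2d34 (ileum 0.64, colon -0.35) it was the larger one. The smallest p was that of Cyp2d9 for treated minus KO (ileum minus colon 1.21, adjusted p = 0.977 by limma), a gene whose ileum values did not exceed 1.47 FPKM.

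Some P450 genes stood out in single libraries. Among them, 6 genes reached 1 FPKM in Colon uninjected 3 alone: Cyp2a12 (10.1 FPKM), Cyp1a2 (7.39), Cyp2a5 (5.96), Cyp2j5 (4.07), Cyp4a12a (2.42) and Cyp8b1 (2.32), which were picked by this pattern. In the liver these genes oxidize drugs, coumarin and fatty acids or, for Cyp8b1, make cholic acid. Their estimated reads in that library were 136, 114, 84, 128, 49 and 37 in the order given. Summed, the 6 genes stood at 32.3 FPKM in Colon uninjected 3, at 2.89 in Colon KO 1 and 2.68 in Colon treated 1, and at 0.246 to 0.681 in the other 8 colon libraries.

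Hepatocyte markers other than Ttr followed the same 3 libraries. Alb, the serum albumin gene, was at 334 FPKM in Colon uninjected 3, 73.0 in Colon KO 1 and 32.7 in Colon treated 1, and at 0.290 to 1.34 in the other colon libraries. The whole list (5 of 5) summed to 704, 141 and 69.4 FPKM in those 3 libraries and to 5.91 to 36.1 in the other 8, where Ttr made up most of it. Ttr was at 93.0 FPKM in Colon uninjected 3. At 32.0 in Colon KO 1 and 11.3 in Colon treated 1 it lay within the 5.10 to 32.6 of the other 8. In the ileum the list summed to 2.26 to 7.07 FPKM, and Cyp1a2 and Cyp2a12 were listed at 0 in all 10 libraries. Cyp7b1, the oxysterol hydroxylase, was also highest in Colon uninjected 3, at 5.69 FPKM against 0.402 to 1.72 in the other colon libraries. The part of liver RNA in these values was not tested, and without the 3 libraries 0 genes of the set were called in the colon comparisons. Cyp2a5 has a near copy, Cyp2a4 (98.5% identical in coding sequence), as has Cyp2a12 in Cyp2a22 (97.0%), so that their reads are uncertain between copies.

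**Figure D5:**
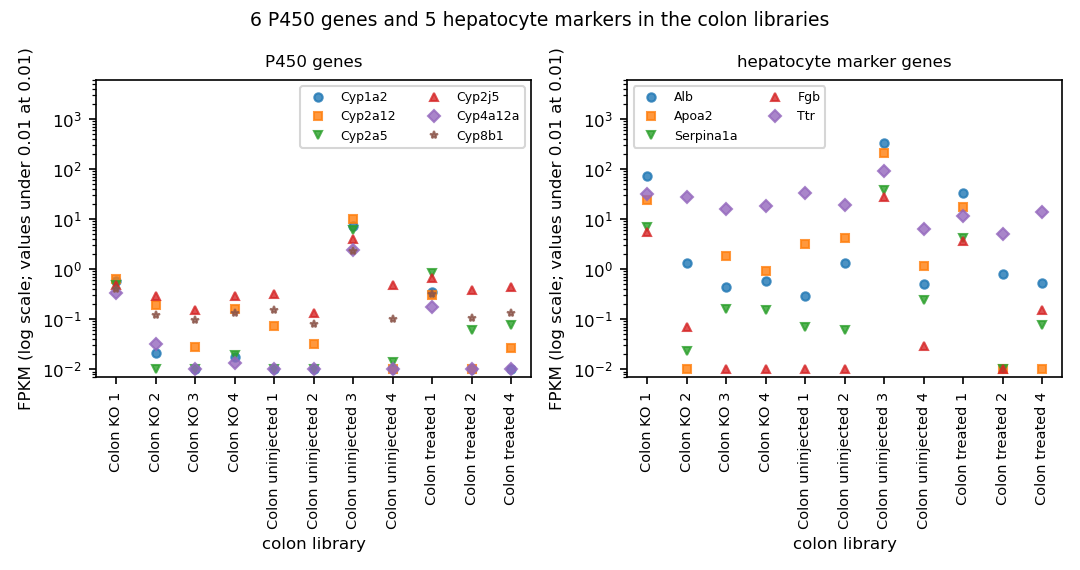
FPKM (log axis) of 6 P450 genes (left) and 5 hepatocyte markers (right) in the 11 colon libraries. Both panels are highest in Colon uninjected 3, where Cyp2a12 is at 10.1 and Alb at 334 FPKM, and next highest in Colon KO 1 and Colon treated 1.

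The Cyp2d cluster had a library of its own. Colon uninjected 1, a female by label, held the highest value of Cyp2d34 (301 FPKM), Cyp2d10 (99.9), Cyp2d9 (64.4), Cyp2d12 (58.7), Cyp2d13 (16.6) and Cyp2d22 (26.3), together 641 FPKM of Cyp2d against 148 to 285 in the other 10 colon libraries. Por, the electron donor, was also highest there, at 211 FPKM against 67.3 to 120.5 in the other colon libraries. Colon treated 1 held the highest Cyp2d26 of the colon (91.7 FPKM) with none of the other Cyp2d genes above the range of the KO group except Cyp2d22 (23.6 against 12.2 to 19.1). The single male of the uninjected colon group, number 4, had the lowest Cyp2d9 (7.89) and Cyp2d10 (13.7) of that group. With sex as a covariate the log2 differences of Cyp2d9 and Cyp2d10 in colon uninjected minus KO turned from 0.72 and 0.66 to -0.80 and -0.80, which rests on that 1 male library.

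Cyp1a1, the classic target of the aryl hydrocarbon receptor, was at 7.04 FPKM (183 estimated reads) in Ileum uninjected 3 and at 0.0444 to 0.269 in the other 9 ileum libraries; in the colon it ran from 0 to 1.08. Ahr itself was at 1.01 FPKM in Ileum uninjected 3 and at 0 to 3.66 in the other ileum libraries. The feedback genes Tiparp and Ahrr were not high in Ileum uninjected 3. Tiparp was at 1.85 FPKM there, against 1.15 to 9.63 in the other ileum libraries, and Ahrr at 0, against 0 to 0.601. How active the receptor was is not measured by these values.

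Cyp2b10, the classic target of CAR, differed as widely within groups. It was at 1.98, 2.99, 1.76 and 0.489 FPKM in Ileum KO, 1.31, 12.5 and 0.488 in Ileum uninjected and 17.0, 8.03 and 0.208 in Ileum treated. Nr1i3, which encodes CAR, was at 1.97, 2.52, 1.82 and 0.401 FPKM in the same KO libraries, 1.35, 7.78 and 2.16 in uninjected and 10.6, 4.05 and 0.0316 in treated. Both genes were highest in Ileum treated 1 and Ileum uninjected 3 and lowest in Ileum treated 4. The 3 libraries with the lowest Cyp2b10 in the ileum (KO 4, uninjected 4 and treated 4) also had the lowest summed absorptive enterocyte markers (6 of 6; 6387, 10050 and 8698 FPKM, against 15260 to 46690 in the others) and the lowest Cyp2d26 (18.7, 8.86 and 6.26 FPKM, against 26.8 to 87.3). The part of enterocyte content in these values was not tested.

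Cyp2e1, which oxidizes ethanol and other small molecules, ran from 4.15 to 43.0 FPKM in the colon and from 2.73 to 31.5 in the ileum. In Ileum KO it was at 21.6, 2.99, 29.7 and 31.5 FPKM, and Adipoq, a defining gene of fat cells, was at 24.7, 1.71, 16.1 and 18.2 in the same libraries. In the uninjected colon Cyp2e1 was at 36.5, 6.99, 39.3 and 43.0 and Adipoq at 55.0, 15.3, 7.54 and 47.7; the third of these libraries is the one highest in hepatocyte markers. All 4 adipocyte markers were above 0 in every library, with sums of 67.2 to 557 FPKM. The part of fat and liver cells in the Cyp2e1 values was not tested.

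The genes that serve P450 enzymes were present throughout. Of the 7 of 8 redox partners in the tables, Por ran from 67.3 to 211 FPKM in the colon and from 29.8 to 128 in the ileum, and Fdxr, which serves the mitochondrial P450 enzymes, from 6.32 to 22.0 and from 3.91 to 21.0. Of the 10 receptors and feedback genes 8 were tested in each comparison; Nr1i2 ran from 23.7 to 63.6 FPKM in the colon and 38.7 to 75.4 in the ileum. None of the 7 redox partners and none of the 8 receptors passed the adjusted threshold in any comparison. At an unadjusted p under 0.05 there was 1 of each, both in ileum uninjected minus KO. Por was at 65.6, 128 and 40.3 FPKM in Ileum uninjected and 46.3, 39.5, 37.3 and 29.8 in Ileum KO (log2 difference 0.88, 95% interval 0.01 to 1.75, adjusted p = 0.665 by limma). Tiparp, a gene that dampens Ahr signalling, was at 1.85 to 5.96 FPKM in uninjected and 6.94 to 8.04 in KO (log2 difference -0.87, 95% interval -1.65 to -0.08, adjusted p = 0.665 by limma).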

How the data were processed

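Poly(A) RNA-seq libraries (21) were analysed as 6 tables of FPKM per gene, which the authors deposited with 2 groups of 1 tissue per table. Per the labels' protocols the libraries were made with NEBNext Ultra II kits and mapped with CLC Genomics; the submitters' processing notes list kallisto 0.45.0, DESeq2 and DESeq 1.14.0, and the build mm9, without saying what each was used for, and how reads of close copies were shared is not given in the sources used here. Columns of the treated groups and of uninjected ileum could be tied to a group but not to a single sample. The P450 genes, lists and markers were chosen with earlier results of these data known.

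Each table was fitted alone with limma 3.58.1 (trend, R 4.3.3) on log2(FPKM + 0.5), over all genes that averaged 1 FPKM or more, with Benjamini-Hochberg adjustment over all of them and a threshold of 0.05. The fold scale therefore understates changes of low genes. The test is two-sided. Differences between tissues were tested as the effect in ileum minus the effect in colon. Genes are named where they were called, where they were among the 8 smallest p of a comparison, where a group mean reached 10 FPKM, or as members of a list with their levels. FPKM steps gave whole reads (within 0.01) for 79.78% of 18779 colon genes and 79.51% of 18255 ileum genes; voom on these reads was an alternative chosen after seeing the data, as were the fits without libraries high in acinar or hepatocyte transcripts. The other alternatives were pseudocounts, filters, scaling, sex as a covariate, a replicate block and leaving out each library. Sequences and starts come from RefSeq (GRCm38.p6). The fits were also run on simulated data, drawn independently for each gene and library. The outcome is not given here, and such data hold no libraries that stand apart over many genes.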

Additional observations from a re-analysis of the deposited data

Results flagged for a closer look

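Within groups of 4 libraries, 84 pairs of a P450 gene and a group were searched for a library far from the other 3 (a gap of over 0.829 of the group's range). There were 14 such cases. Chance gives about 1 in 20 for values drawn alike, a rate that cannot be applied here: a pair was looked at only if a library reached 1 FPKM, so some entered through the high library itself, and 8 of the 14 share a library.

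Colon uninjected 3 was the highest library in 8 of them. Cyp1a2 was at 7.39 FPKM there and at 0 in the other 3, Cyp2a12 at 10.1 against 0 to 0.0736, Cyp2a5 at 5.96 against 0 to 0.0142, and Cyp4a12a at 2.42 against 0. Cyp2j5 was at 4.07 FPKM against 0.135 to 0.471, and Cyp8b1 at 2.32 against 0.0797 to 0.155. Cyp7b1 was at 5.69 FPKM against 0.402 to 0.544, and Cyp1b1 at 2.74 against 0.112 to 0.302. Hepatocyte and acinar marker sums were highest in the same library; their part in these values was not tested.

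Colon uninjected 1 stood apart by Cyp2d12, at 58.7 FPKM against 3.83 to 6.79, and by Cyp2d26, at 72.3 against 17.4 to 23.4. Colon KO 3 stood apart by Cyp2b10, at 2.69 FPKM against 0 to 0.208, and by the pseudogene Cyp4f41-ps, at 1.31 against 0.864 to 0.894. Ileum KO 1 had Cyp2s1 at 33.2 FPKM against 26.4 to 27.1 in the other 3 Ileum KO libraries. Ileum KO 4 had Cyp2w1 at 1.14 FPKM against 0.104 to 0.269.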

How the results depend on the processing

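Of 156 alternative counts of called P450 genes 155 were 0. The exception was colon treated minus KO without Colon treated 4, where Cyp2f2 was called (log2 difference -2.39, limma adjusted p = 0.0450), so that leaving out single libraries gave 0 to 1 there and 0 to 0 elsewhere. Alternative values of single genes (805) were taken only for the 8 genes with the smallest p in each comparison. Of these values 14 changed direction, and 790 kept their direction and their side of the threshold. Because the genes were picked by their p in these data, and none was called, such stability is partly built in. It does not extend to the other genes of the set.

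With sex as a covariate, colon uninjected minus KO turned to 0.037 for Cyp39a1, 0.25 for Cyp2w1, -0.80 for Cyp2d9 and -0.80 for Cyp2d10, and colon treated minus uninjected to 0.58 for Cyp2f2, 0.68 for Cyp2d9, 0.75 for Cyp2d10, -0.24 for Cyp2w1 and -0.28 for Cyp2j6; both fits rest on the 1 male uninjected colon library. Without Colon treated 4, Cyp4v3 turned to -0.058 in colon treated minus uninjected, and without the 3 acinar-high libraries to -0.025 in colon treated minus KO. Without Ileum treated 4, ileum treated minus KO turned to 0.25 for Cyp2d26 and 0.049 for Cyp4f13, and ileum treated minus uninjected to 0.04 for Cyp4f16. Leaving out single libraries gave values from -0.058 to 1.184 for that Cyp4v3 difference, from -1.597 to 0.25 for Cyp2d26, from -0.571 to 0.049 for Cyp4f13 and from -1.013 to 0.04 for Cyp4f16. The cause was not tested in these cases.

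At a mean of 0.1 FPKM 46 genes were detected in the colon and 39 in the ileum, and at 5 FPKM 19 in the colon. Other scalings moved the median of all genes to between -0.07 and 0.04. With the replicate block in colon uninjected minus KO 0 genes were called and the lowest adjusted p of the set was 0.559 (limma). Same-numbered libraries deviated together in 1 of 4 pairs (correlations 0.004, -0.003, -0.006 and 0.671), so the numbers were not taken as pairs. The pair at 0.671 was Colon KO 4 with Colon uninjected 4. With the other uninjected libraries Colon KO 4 correlated at -0.255 to -0.198. What the libraries numbered 4 share was not tested. No replicate block was fitted for the other comparisons, where the columns of 1 or both groups are tied to a group only. Their columns carry numbers too, but a block on these numbers was not run. Sex could not be fitted in the ileum because its uninjected columns are not tied to single samples. Group sizes of 3 or 4 and the low levels of genes under 1 FPKM limit what could be detected.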
